A study of Mus musculus with 8 samples.

Results

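The genes described are 10 blood-brain barrier genes out of the 55487 gene IDs of the hippocampal tables. They were chosen by symbol. Cldn5 and Ocln encode tight junction proteins, Abcb1a and Abcg2 encode efflux pumps, and Slco1a4 and Slco1c1 encode organic anion transporters. Slc2a1, Slc7a5 and Mfsd2a encode carriers of glucose, large neutral amino acids and lipid, and Tfrc encodes the transferrin receptor. All 10 symbols were found in both libraries, each under a single gene ID, and all 10 passed the filter on low values in endothelial barcodes.

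Brain capillaries are lined by endothelial cells that seal the gaps between them with tight junctions and make little use of vesicles to carry solutes across. Nutrients therefore enter through dedicated carriers, lipophilic compounds are returned to the blood by ATP-driven pumps, and iron enters by receptor-mediated uptake of transferrin. Wnt and beta-catenin signalling maintains this gene programme in brain vessels, and carriers are known to be distributed unevenly from arteries through capillaries to veins.

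The study compared the hippocampus of Foxp3-DTR+ mice with that of littermate Foxp3-DTR- controls, all given diphtheria toxin, to ask what depletion of regulatory T cells does to the hippocampal niche. Foxp3-DTR+ animals carry the diphtheria toxin receptor under the control of Foxp3, the defining transcription factor of regulatory T cells, so that the toxin kills those cells, whereas Foxp3-DTR- animals received the toxin without the receptor. Live CD45- Thy1- cells of 2 mice were pooled into 1 library per genotype, called DTRneg and DTRpos here, and sequenced with a 10x Genomics 3' kit. With 1 library per genotype no difference between genotypes has a replicate check, no test was possible, and the mice of a pool could not be separated. The ages of the mice and the interval between toxin and tissue collection are not given in the sources used here.

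The DTRneg library held 8220 barcodes with 53.5 M UMIs (unique molecular identifiers, each standing for 1 captured RNA molecule), and the DTRpos library held 6548 barcodes with 35.8 M. After filtering, 6863 and 5691 barcodes remained, with medians of 6003 and 4509 UMIs. The libraries shared 18 barcode sequences, none of them endothelial in both. Foxp3 had 0 UMIs in both libraries, whose gate excluded CD45+ cells, so depletion could not be read from these data. Endothelial barcodes were those with at least 3 of the 5 markers Flt1, Pecam1, Ly6c1, Itm2a and Egfl7. The rule took 530 DTRneg barcodes (7.72% of those used) and 373 DTRpos barcodes (6.55%), although the labels describe the cells as neurons and glia. Their median depth was 2038.5 and 1644 UMIs. Levels below are UMIs of a gene per 1000000 UMIs summed over the barcodes of a class (CPM), and brackets give exact 95% intervals that cover counting error only.

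In all, 36 DTRneg and 15 DTRpos endothelial barcodes also met the marker rule of another class, mostly mature oligodendrocytes (14 and 6 barcodes) and astrocytes (13 and 4). They bear on the comparison between the libraries, because they held 30.5% of all endothelial UMIs in DTRneg and 15.3% in DTRpos. They carried 4.48% and 3.29% of the Cldn5 UMIs found in endothelial barcodes. Values between the libraries are therefore given with and without these barcodes, which will be called second-class barcodes.

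The promoters of the claudin that defines the barrier and of carriers with differing cell-type ranges are shown first. Each runs 5' to 3' over the 250 bases before the RefSeq transcription start (GRCm38.p6). They are those of Cldn5 (chr16:18776597-18776846, plus strand), Slco1a4 (chr6:141856221-141856470, minus strand), Slco1c1 (chr6:141524104-141524353, plus strand) and Mfsd2a (chr4:122961189-122961438, minus strand). Capitals mark matches, on either strand, to the TCF/LEF motif CTTTGA, the ETS motif CCGGAA, the core ACGTG of the hypoxia response element, or the GC box GGGCGG.
Cldn5: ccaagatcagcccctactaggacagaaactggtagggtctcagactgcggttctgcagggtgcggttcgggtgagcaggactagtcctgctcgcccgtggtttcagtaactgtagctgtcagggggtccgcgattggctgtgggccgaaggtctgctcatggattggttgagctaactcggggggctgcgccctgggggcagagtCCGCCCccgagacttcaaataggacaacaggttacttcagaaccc
Slco1a4: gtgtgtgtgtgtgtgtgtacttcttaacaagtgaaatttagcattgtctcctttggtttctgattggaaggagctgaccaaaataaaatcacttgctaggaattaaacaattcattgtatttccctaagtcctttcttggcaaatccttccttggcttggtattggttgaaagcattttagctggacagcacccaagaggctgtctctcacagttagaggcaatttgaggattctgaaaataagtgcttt
Slco1c1: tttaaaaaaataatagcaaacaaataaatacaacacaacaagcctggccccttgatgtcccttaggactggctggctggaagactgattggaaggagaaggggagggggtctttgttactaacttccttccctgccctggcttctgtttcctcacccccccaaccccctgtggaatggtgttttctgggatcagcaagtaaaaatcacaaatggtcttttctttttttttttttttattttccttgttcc
Mfsd2a: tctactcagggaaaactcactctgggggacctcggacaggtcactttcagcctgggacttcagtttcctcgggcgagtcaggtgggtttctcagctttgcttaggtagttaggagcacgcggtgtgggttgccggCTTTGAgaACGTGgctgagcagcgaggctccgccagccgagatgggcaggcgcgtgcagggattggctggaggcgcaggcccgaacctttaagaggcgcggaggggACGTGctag

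Cldn5 held a GC box 45 bases before the start, as did 32.72% of 32817 mouse promoters of the same length. Mfsd2a held CTTTGA, found in 13.83% of them, and 2 matches to ACGTG, found in 16.57%. The 2 organic anion transporter promoters held none of the 4 motifs (CCGGAA was found in 12.02% of all promoters), and their GC content was 39.2% in Slco1a4 and 42.8% in Slco1c1 against 59.6% in Cldn5 and 61.6% in Mfsd2a. Slco1a4 and Slco1c1 both lie on chromosome 6, with 235 kb between them. The Cldn5 gene lies on chromosome 16 from 18776847 to 18778262 (plus strand), and Slc2a1 and Mfsd2a lie 3809 kb apart on chromosome 4, Slc2a1 from 119108711 to 119137983 (plus strand). A match describes letters in these windows and no site. Of the 10 genes, 9 had an entry in the RefSeq table, and Slc7a5 is named only.

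The barrier genes fell into a group that led in endothelial barcodes and a group shared with glia. In all, 7 of the 10, namely Cldn5, Ocln, Slco1a4, Slc2a1, Abcb1a, Abcg2 and Slc7a5, were at least 4-fold higher in endothelial barcodes than in every other class of at least 50 barcodes, in both libraries. The same held for 2.84% of the 10169 genes that passed the filter. The other classes were pericytes, astrocytes, oligodendrocyte precursors, mature oligodendrocytes, neuroblasts and, in DTRneg, choroid plexus epithelium, each named from its own 5 markers.

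Cldn5, the main claudin of brain endothelium, stood at 3516 CPM (3420.5 to 3614) in endothelial barcodes of DTRneg and 5132 CPM (4973 to 5296) in those of DTRpos. The next class had 2.06 CPM in DTRneg (oligodendrocyte precursors) and 4.72 CPM in DTRpos (neuroblasts), and the interval of the endothelial fold over it began at 729.6 in DTRneg and 424 in DTRpos. No Cldn5 UMI was found in 175 and 152 pericyte barcodes, which bounds its pericyte level at 10.2 and 14.9 CPM. The endothelial groups therefore lay far above all other classes in both libraries.

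Ocln, which encodes occludin, a second membrane protein of the tight junction, was at 121 CPM (103 to 139.8) and 119 CPM (96.0 to 146) in endothelial barcodes. Its next class was choroid plexus epithelium in DTRneg, an epithelium with tight junctions of its own, at 12.2 CPM (5.58 to 23.2, from 9 UMIs). The endothelial level was 9.88-fold higher (5.09 to 22.0). In DTRpos the next class, astrocytes, had 2 UMIs.

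The efflux pumps differed in how far they reached beyond the vessels. Abcb1a, which encodes P-glycoprotein, was at 769 CPM (724 to 815) in DTRneg and 965 CPM (896 to 1037) in DTRpos endothelial barcodes. Over all other classes of at least 50 barcodes its highest level was 0.229 CPM in DTRneg and 0.567 CPM in DTRpos. Its near-identical paralog Abcb1b had 2 UMIs in each endothelial group. How reads shared by the copies were counted is not given in the sources used here, so the split between them is uncertain. Abcg2, the breast cancer resistance protein, was at 671 CPM (629 to 714) and 972 CPM (904 to 1045). Oligodendrocyte precursors carried Abcg2 at 63.6 CPM (53.9 to 74.4) and 68.3 CPM (59.3 to 78.3), and the endothelial level was 10.6-fold and 14.2-fold higher than that.

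The 2 organic anion transporters had different cell-type ranges. Slco1a4, which carries steroid conjugates and drugs, was at 1291 CPM (1233 to 1350.4) in DTRneg and 1592 CPM (1504 to 1684) in DTRpos endothelial barcodes. The next class held 21.7 CPM in DTRneg and 5.91 CPM in DTRpos. Slco1c1, which carries thyroxine, was at 901 CPM (853 to 951) and 1117 CPM (1043 to 1194) in endothelial barcodes. Astrocytes held Slco1c1 at 452 CPM (430.3 to 474) and 448 CPM (427 to 471), so that the endothelial level was only 1.99-fold (1.85 to 2.15) and 2.49-fold (2.29 to 2.71) higher. Choroid plexus epithelium had 229 CPM (196 to 266) in DTRneg. In astrocytes Slco1a4 had 0.819 and 1.13 CPM, from 3 and 4 UMIs.

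Among the nutrient carriers, Slc2a1, which encodes the glucose transporter GLUT1, was at 961 CPM (912 to 1013) in DTRneg and 920.0 CPM (853 to 991) in DTRpos endothelial barcodes. Astrocytes came next with 105 and 106 CPM, and mature oligodendrocytes had 76.6 and 67.3 CPM. The endothelial level was 9.16-fold and 8.68-fold above astrocytes. Slc7a5, the light chain LAT1 of the large neutral amino acid exchanger, was at 231 CPM (207 to 257) and 284 CPM (248 to 325), 16.0-fold and 17.6-fold above the next class.

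Mfsd2a, a sodium-dependent carrier of lysophosphatidylcholine that is known to restrain vesicle transport in brain endothelium, did not lead in endothelial barcodes. Its endothelial level was 234 CPM (209 to 259.8) in DTRneg and 267 CPM (232 to 307) in DTRpos, and oligodendrocyte precursors had 241 CPM (222 to 262) and 221 CPM (204 to 238). The ratio of endothelial barcodes to precursors was 0.968 (0.844 to 1.11) and 1.21 (1.03 to 1.42). The endothelial side of it includes the second-class barcodes, whereas precursors hold none by rule. Without those barcodes the endothelial level was 308 CPM (275 to 344) in DTRneg and 308 CPM (267 to 354) in DTRpos, above precursors in both. Mfsd2a still did not lead by the 4-fold rule. Astrocytes held 113 and 110.5 CPM, whereas mature oligodendrocytes had 4.16 and 2.74 CPM. The 3 levels were thus of the same order in endothelium, precursors and astrocytes, and low in mature oligodendrocytes.

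Tfrc, the receptor through which transferrin-bound iron enters cells, was at 382 CPM (351 to 415) and 547 CPM (495 to 602) in endothelial barcodes. Astrocytes had 96.4 and 105 CPM, mature oligodendrocytes 58.1 and 72.1 CPM, and neuroblasts 38.1 and 55.5 CPM. The endothelial level was 3.96-fold (3.46 to 4.54) above astrocytes in DTRneg and 5.21-fold (4.52 to 6.01) in DTRpos. Tfrc therefore missed the 4-fold rule in DTRneg by a margin within counting error, and it met the rule in both libraries without the second-class barcodes.

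**Figure D1:**
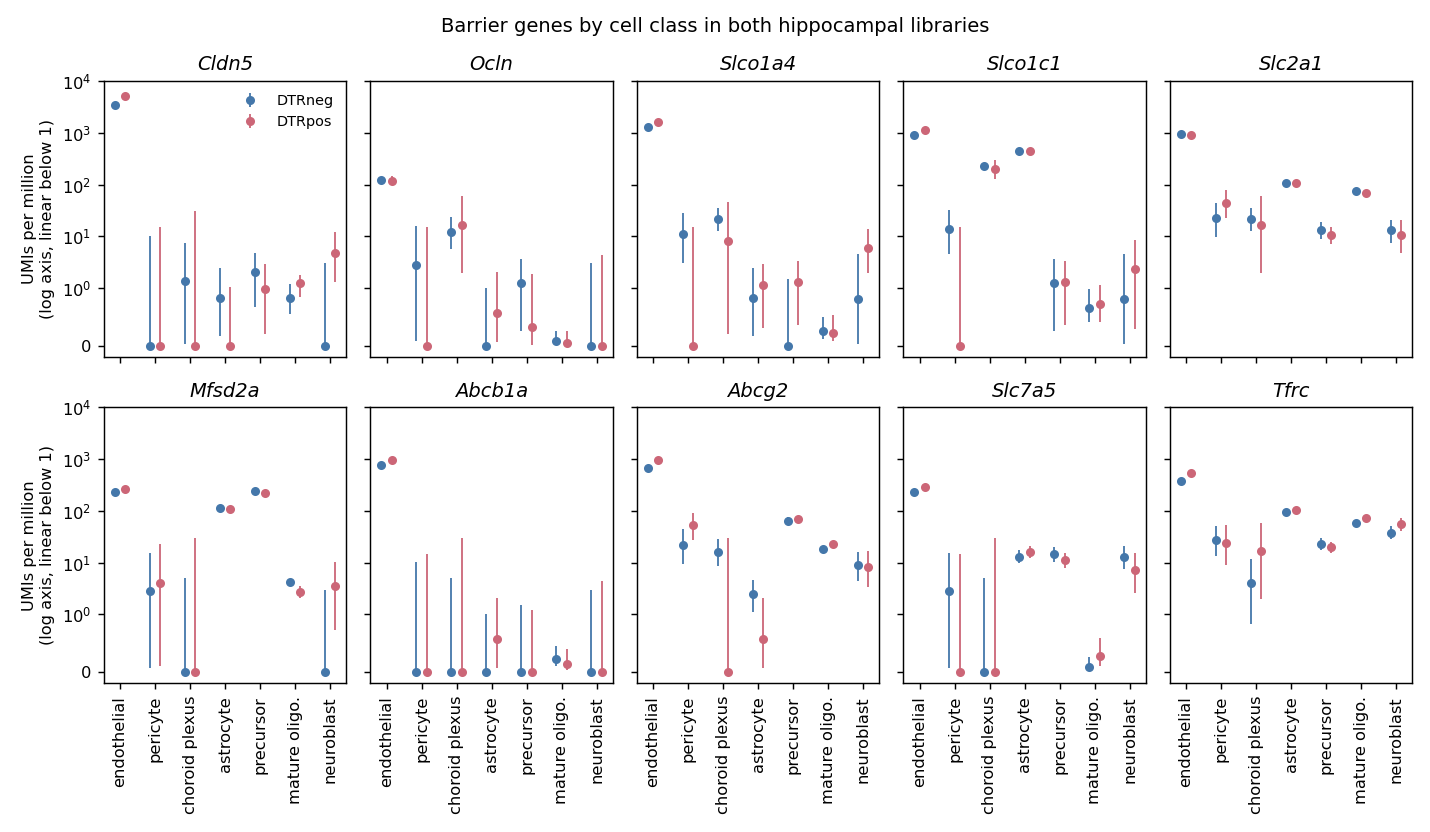
Level of each barrier gene (vertical axis, CPM, log scale above 1 and linear below) in 7 cell classes of the DTRneg and DTRpos libraries. Points are summed counts with exact 95% intervals for counting error, and choroid plexus epithelium in DTRpos rests on 29 barcodes. Cldn5 and Abcb1a stand alone in endothelial barcodes, Slco1c1 is shared with astrocytes and choroid plexus, and Mfsd2a is at 241 and 221 CPM in oligodendrocyte precursors against 234 and 267 CPM in endothelial barcodes. The endothelial points include the second-class barcodes.

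Single endothelial barcodes carried several of the 10 genes at once. When barcodes were thinned to 1000 UMIs, so that depth was equal, 466 DTRneg and 314 DTRpos endothelial barcodes remained and 64 and 59 were too shallow. They carried a median of 5 of the 10 genes in both libraries, and 88.0% and 93.0% carried 3 or more. Pericytes, oligodendrocyte precursors and mature oligodendrocytes had a median of 0, and astrocytes a median of 0 in DTRneg and 1 in DTRpos.

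A Cldn5 UMI was found in 91.4% (88.5 to 93.8) of thinned DTRneg and 96.2% (93.4 to 98.0) of thinned DTRpos endothelial barcodes, and in 97.0% and 98.1% before thinning. In pericytes, which should lack the gene, it was found in 0 of 168 and 0 of 138 thinned barcodes, which, at 3 counts of the total, allows shares of barcodes with a UMI of up to 1.79% and 2.17% (exact upper limits 2.17% and 2.64%). The thinned share was 52.4% and 63.4% for Abcg2, 63.1% and 61.8% for Slc2a1, and 30.5% and 36.3% for Tfrc, in DTRneg and DTRpos respectively. No barrier gene rested on a few barcodes: the 5 richest endothelial barcodes held between 3.59% (Cldn5) and 10.2% (Ocln) of a gene's UMIs in DTRneg and between 4.65% (Cldn5) and 13.2% (Ocln) in DTRpos.

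Near the threshold of the endothelial rule the barcodes were few. The 11 DTRneg and 8 DTRpos barcodes with 2 of the 5 markers, just outside it, held the 10 genes at a summed 5656 and 6084 CPM. The 71 and 45 barcodes with 3 markers, just inside it, held 2953 and 9809 CPM, and those with all 5 held 10995 and 12003 CPM.

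Between the libraries, 3 of the 10 barrier genes were at least 1.3-fold higher in DTRpos endothelial barcodes and none was at least 1.3-fold lower. Of the 6338 genes with a mean of at least 20 CPM, 19.2% were higher and 15.4% lower by that rule. The 3 were Cldn5, Abcg2 and Tfrc. The median log2 ratio of DTRpos over DTRneg was 0.31 over the 10 genes, 0.06 over all 6338, and 0.34 over the 282 other genes that led in endothelial barcodes, 127 of which were past 1.3-fold higher and 8 lower. The barrier genes thus lay where endothelial-leading genes in general lay.

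Cldn5 had a log2 ratio of 0.55 (0.49 to 0.61), a 1.46-fold difference between the levels of 3516 and 5132 CPM given above. Abcg2 had 0.54 (0.40 to 0.68) and Tfrc 0.52 (0.33 to 0.70), 1.45-fold and 1.43-fold. A further 4 genes had intervals above 0 without reaching 1.3-fold: Slco1a4 at 0.30 (0.20 to 0.41), Slco1c1 at 0.31 (0.18 to 0.44), Abcb1a at 0.33 (0.19 to 0.46) and Slc7a5 at 0.30 (0.05 to 0.55). The share of all genes with intervals above 0 is not given here. For Mfsd2a the ratio was 0.19 (-0.06 to 0.45), for Ocln -0.02 (-0.40 to 0.36) and for Slc2a1 -0.06 (-0.20 to 0.07). Ocln, from 176 and 91 UMIs, was the least precisely measured of the 10.

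Markers of most other classes were lower in DTRpos than in DTRneg endothelial barcodes, opposite to most barrier genes. Ttr, an abundant product of choroid plexus, stood at 1839.5 CPM in DTRneg and 34.1 CPM in DTRpos endothelial barcodes. The summed mature oligodendrocyte markers were at 1681 and 723 CPM with 5 of 5 higher in DTRneg, and the pericyte markers at 218 and 86.5 CPM, also 5 of 5. Astrocyte markers summed to 301 and 202 CPM (4 of 5 higher in DTRneg), fibroblast markers to 43.8 and 0 CPM, and choroid plexus markers to 23.3 and 0 CPM. Neuroblast markers went the other way, at 112 and 163 CPM with 1 of 5 higher in DTRneg. Of the microglial and immune markers, Cx3cr1, Csf1r, C1qa and Ptprc were at 0 in both libraries.

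Without the second-class barcodes, 494 DTRneg and 358 DTRpos endothelial barcodes remained, and Ttr was at 125 and 37.1 CPM. None of the 10 barrier genes was then past 1.3-fold in either direction, where 16.2% of all genes were higher and 12.5% lower. Their median log2 ratio was 0.05. Cldn5 was at 4836 and 5861 CPM, a log2 ratio of 0.28 (0.22 to 0.34), and Abcg2 had 0.28 (0.14 to 0.42) and Tfrc 0.23 (0.03 to 0.42). Slco1a4, Slco1c1, Abcb1a, Slc7a5 and Mfsd2a lay between 0.00 and 0.07 with intervals that included 0.

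Slc2a1 moved the other way, from 1288 CPM (1219 to 1360.2) in DTRneg to 1060.1 CPM (982 to 1143) in DTRpos, a log2 ratio of -0.28 (-0.42 to -0.15). It was the 1 gene of the 10 whose interval lay below 0. Ocln had -0.26 (-0.65 to 0.12).

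**Figure D2:**
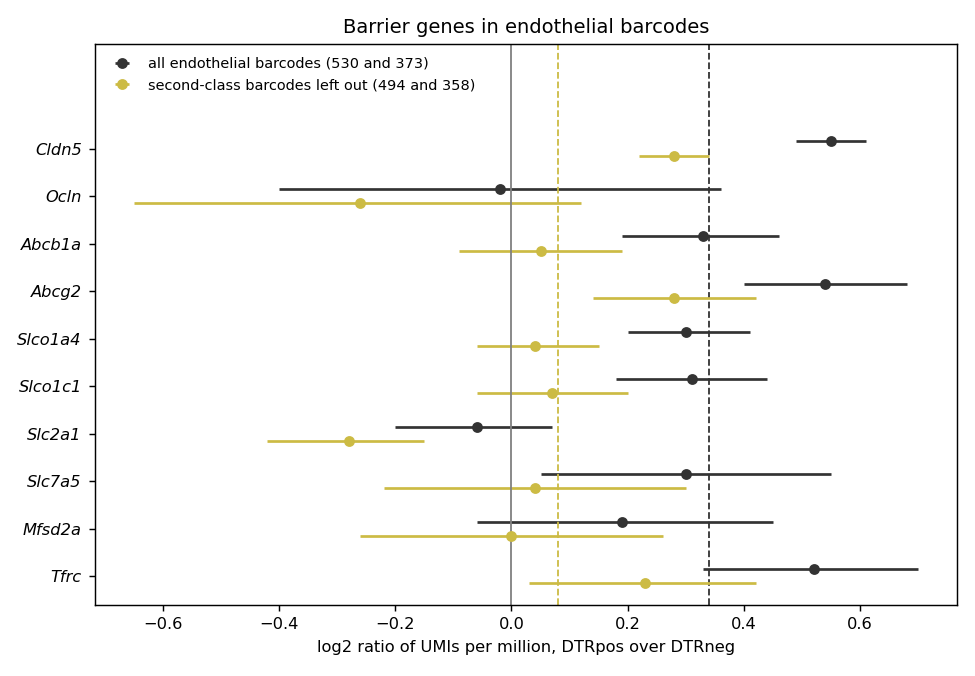
Log2 ratio of DTRpos over DTRneg (horizontal axis) for each barrier gene in all endothelial barcodes and without the second-class barcodes, with exact 95% intervals for counting error. Dashed lines mark the medians of the other genes that led in endothelial barcodes, the 10 barrier genes left out. Every ratio is lower without the second-class barcodes, and the order of the genes is nearly unchanged, with Cldn5, Abcg2 and Tfrc highest and Slc2a1 and Ocln lowest.

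A scale that does not depend on the total is the number of UMIs of a gene per 100 Cldn5 UMIs of the same barcodes. It was chosen after the values were seen. Slc2a1 had 27.3 UMIs per 100 Cldn5 UMIs in DTRneg and 17.9 in DTRpos, a log2 ratio of -0.61 (-0.74 to -0.48). Without the second-class barcodes the values were 26.6 and 18.1, or -0.56 (-0.69 to -0.42). The ratio was -0.64 in arterial-marker, -0.50 in venous-marker and -0.62 in the remaining endothelial barcodes, defined below, each with an interval below 0.

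Ocln likewise had 3.43 and 2.32 UMIs per 100 Cldn5 UMIs, a log2 ratio of -0.56 (-0.94 to -0.19). In all, 6 genes had intervals below 0 on this scale. The others were Mfsd2a at -0.35, Slco1a4 at -0.24, Slco1c1 at -0.24 and Abcb1a at -0.22. Slc7a5 was at -0.24 with an interval that included 0. Abcg2 and Tfrc kept pace with Cldn5, at 19.1 and 18.9 for Abcg2 (-0.15 to 0.13) and 10.9 and 10.6 for Tfrc (-0.21 to 0.16). Cldn5, the reference, had the highest CPM ratio of the 10 genes, so the other genes lie lower on this scale than in CPM. Among 281 other endothelial-leading genes, 12.8% had a lower ratio of DTRpos over DTRneg CPM than Slc2a1 and 14.9% a lower one than Ocln. A lower ratio than that of Cldn5 was found for 73.7%, which therefore also lie below 0 per Cldn5 UMI. The share of them with intervals below 0 is not given here. Slc2a1 and Ocln were low and Cldn5 high among genes of the same cells, but neither stood outside them.

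**Figure D3:**
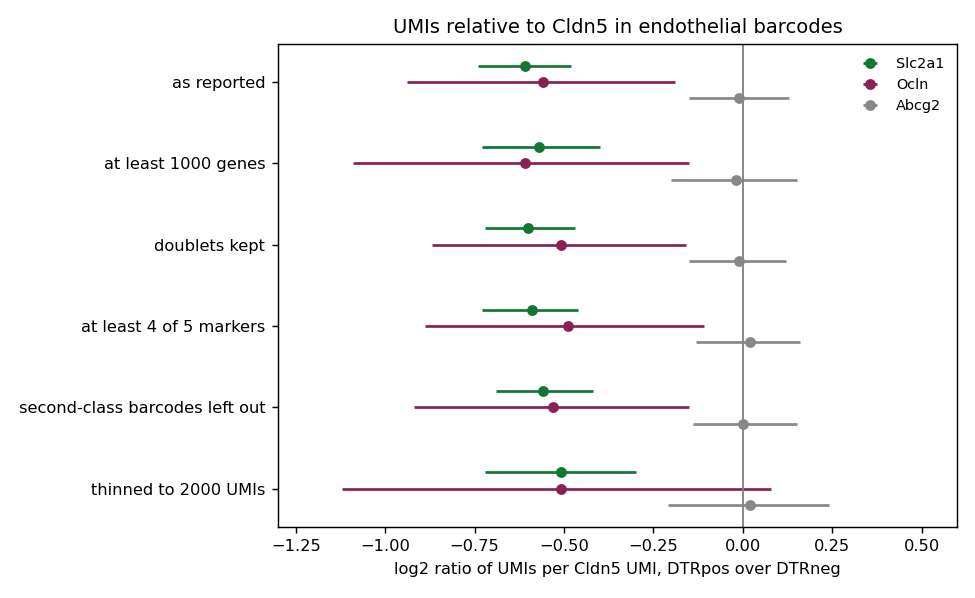
Log2 ratio of DTRpos over DTRneg in UMIs per Cldn5 UMI (horizontal axis) for Slc2a1, Ocln and Abcg2, under 6 ways of choosing or thinning the endothelial barcodes (vertical axis), with exact 95% intervals for counting error. Slc2a1 lies between -0.61 and -0.51 in every row, Abcg2 stays near 0, and the Ocln interval reaches 0 after thinning to 2000 UMIs.

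In astrocytes, oligodendrocyte precursors and mature oligodendrocytes, no barrier gene that passed the filter was past 1.3-fold between the libraries. In astrocytes the log2 ratio was -0.01 (-0.11 to 0.09) for Slco1c1, 0.01 (-0.19 to 0.22) for Slc2a1, -0.04 (-0.24 to 0.17) for Mfsd2a and 0.12 (-0.09 to 0.33) for Tfrc. By the 1.3-fold rule 5.26% of astrocyte genes were higher and 4.80% lower. In oligodendrocyte precursors Mfsd2a had -0.13 (-0.29 to 0.03) and Abcg2 0.10 (-0.20 to 0.41), also within 1.3-fold (background 6.41% higher and 6.01% lower). In mature oligodendrocytes, where 1.28% of genes were higher and 2.63% lower, Slc2a1 had -0.19 (-0.28 to -0.10), Abcg2 0.29 (0.12 to 0.46) and Tfrc 0.31 (0.21 to 0.41), all short of 1.3-fold with intervals that excluded 0. Pericytes and neuroblasts gave 3 values past 1.3-fold, all with intervals that included 0: pericyte Slc2a1 (8 and 11 UMIs) and Abcg2 (8 and 13 UMIs), where 23.0% of genes were higher and 22.8% lower, and neuroblast Tfrc (47 and 47 UMIs), where 14.0% were higher and 12.2% lower.

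Within the endothelial barcodes the carriers varied along the vessel axis. Arterial-marker barcodes had at least 2 of Gkn3, Bmx, Sema3g, Hey1, Efnb2 and Vegfc and fewer venous markers, and numbered 34 in DTRneg and 20 in DTRpos. Venous-marker barcodes had at least 2 of Vwf, Nr2f2, Slc38a5, Lcn2, Icam1 and Vcam1 and fewer arterial markers, and numbered 145 and 72. The remaining 351 and 281 are called other, and they were shallower, with median UMIs of 1831 and 1536 against 2327 and 2145 in the venous group. None of these markers is among the 10 genes.

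Slco1c1 was lower in venous-marker than in other barcodes, at 566 against 1020.3 CPM in DTRneg and 736 against 1266 CPM in DTRpos. The log2 ratios were -0.85 (-1.06 to -0.65) and -0.78 (-1.04 to -0.53). Mfsd2a was at 139.7 against 276 CPM and 153 against 335 CPM, with ratios of -0.98 (-1.40 to -0.58) and -1.13 (-1.70 to -0.59). Slc7a5 was at 158 against 274 CPM and 172 against 353 CPM, with ratios of -0.79 (-1.20 to -0.41) and -1.04 (-1.59 to -0.53). The ratios of these 3 genes lay between -1.04 and -0.47 without the second-class barcodes. Slco1a4 was also lower in the venous group, with ratios of -0.24 (-0.39 to -0.09) and -0.65 (-0.85 to -0.45), and so was Tfrc, with -0.28 (-0.57 to -0.01) and -1.02 (-1.41 to -0.66). These 5 genes were thus lower in the venous group in both libraries with intervals that excluded 0. Without the second-class barcodes Ocln was lower too, at -0.63 (-1.20 to -0.09) and -0.92 (-1.89 to -0.05). Slc2a1 (0.11 and 0.30) and Abcg2 (0.11 and 0.20) then had ratios above 0. Of these values only that of Slc2a1 in DTRpos had an interval that excluded 0 (0.04 to 0.55). No share over all genes is given here, so whether lower venous levels are particular to barrier genes was not tested.

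Slc2a1 was highest in arterial-marker barcodes, at 1902 CPM (1612 to 2230.1) in DTRneg and 1462 CPM (1144 to 1841) in DTRpos, against 856 and 898 CPM in other barcodes. The ratios were 1.15 (0.89 to 1.40) and 0.70 (0.32 to 1.06), and 0.66 and 0.70 without the second-class barcodes.

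Tfrc was low in arterial-marker barcodes, at 225 and 183 CPM against 415 and 679 CPM in other barcodes, with ratios of -0.88 (-1.65 to -0.20) and -1.89 (-3.03 to -0.95). Slc7a5 was also low there, at 138 and 101 CPM from 11 and 5 UMIs. Cldn5 showed no stable order: its venous ratio was 0.03 in DTRneg and -0.41 in DTRpos, and -0.09 and -0.07 without the second-class barcodes. The venous share of endothelial barcodes was 27.4% (23.6 to 31.4) in DTRneg and 19.3% (15.4 to 23.7) in DTRpos. This share counts detected markers and was not matched for depth, and DTRneg endothelial barcodes were deeper (median 2038.5 against 1644 UMIs). It therefore cannot be read as vessel composition alone. Its part in the pooled DTRpos to DTRneg ratios was not tested beyond the values per Cldn5 UMI in each group.

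**Figure D4:**
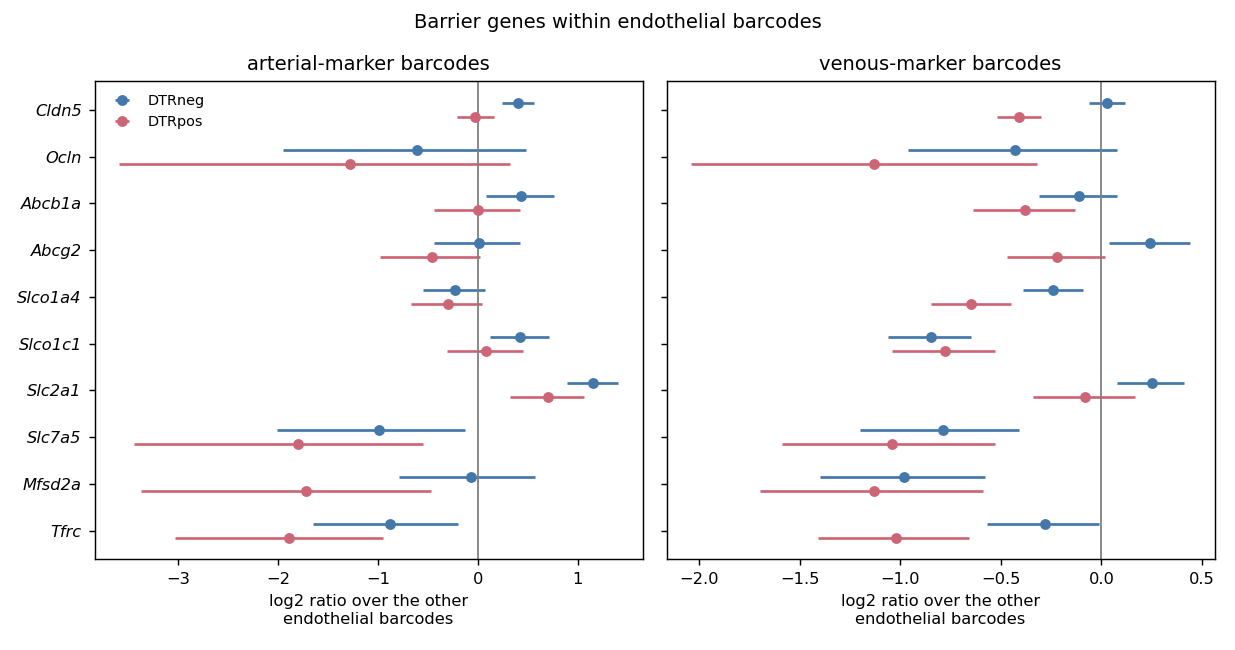
Log2 ratio of each barrier gene's CPM in arterial-marker (left) and venous-marker (right) endothelial barcodes over the other endothelial barcodes (horizontal axes), for DTRneg and DTRpos, with exact 95% intervals for counting error. Slc2a1 is high on the arterial side, Slco1c1, Mfsd2a, Slc7a5, Slco1a4 and Tfrc are low on the venous side, and Slc7a5 and Tfrc are low on the arterial side, in both libraries.

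In the wider gene groups of the barrier, the counts past 1.3-fold stand beside 19.2% higher and 15.4% lower over all genes (16.2% and 12.5% without the second-class barcodes), and the medians beside 0.06 over all genes and 0.34 over the other endothelial-leading genes. Of those that passed the filter, 7 of 8 other junction genes, 11 of 12 other transporters, 4 of 7 receptor and vesicle genes and 13 of 16 beta-catenin pathway genes had a ratio above 0. The same held for 3557 of all 6338 genes and for 238 of the 282 other endothelial-leading genes. Of 13 other junction genes, 8 passed the filter in endothelial barcodes, with 1 higher (Tjp1, the scaffold ZO-1, log2 ratio 0.40, interval 0.19 to 0.60), 1 lower (Jam3, a junctional adhesion molecule, -1.06, interval -1.70 to -0.47) and a median of 0.24. Without the second-class barcodes Tjp1 was at 0.14, and Jam3 was at 11.8 and 13.9 CPM, under the filter. Cldn1, Cldn3 and Cgn had no UMI in either endothelial group, which bounds each at 2.53 CPM in DTRneg and 4.83 CPM in DTRpos.

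Of 14 other transporters, 12 passed, with 1 higher (Slc16a1, the lactate carrier MCT1, 0.42, interval 0.22 to 0.63), 0 lower and a median of 0.19. Slc3a2, the heavy chain that pairs with Slc7a5, was at 487 and 613 CPM, a ratio of 0.33 (0.16 to 0.50). Without the second-class barcodes Slc16a1 was at 0.15 and the only call was Slc6a6, the taurine carrier, at 1058 and 797 CPM (-0.41, interval -0.56 to -0.26).

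Of 9 receptor and vesicle genes, 7 passed, with Lrp8, an apolipoprotein E receptor, at 0.41 and Cavin2, a caveolar coat gene, at 0.46, 0 lower and a median of 0.07. Plvap, the diaphragm protein of fenestrated vessels that mature barrier endothelium lacks, had 4 UMIs in DTRneg and 0 in DTRpos. Without the second-class barcodes Lrp8 was at 0.08, Cavin2 at 0.22, and the only call was the caveolar gene Cav2, lower at -0.41 (-0.73 to -0.09).

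Of 17 genes of the beta-catenin pathway of brain vessels, 16 passed, 4 were higher and 0 lower, with a median of 0.19. These were Reck, a co-receptor for Wnt7 ligands, at 0.94 (0.16 to 1.72, from 30 and 30 UMIs), the transcription factor Foxq1 at 0.45 (0.26 to 0.64), the receptor Fzd4 at 0.42 (-0.07 to 0.91) and the co-receptor Lrp6 at 0.40 (-0.10 to 0.89). Without the second-class barcodes Reck was at 0.60 (-0.22 to 1.41), Foxq1 at 0.22, Fzd4 at 0.29 and Lrp6 at 0.24, and Tspan12, a partner of Fzd4, was past 1.3-fold lower at -0.45 (-1.17 to 0.23).

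The genes whose profile was most like that of each barrier gene were found by Pearson's correlation of log2(CPM + 10) over 13 sums of class by library, among 6389 genes of at least 50 CPM in some class. The 13 points share libraries and depth, so the values are descriptions. Nearest to Cldn5 were Gimap1, Icam2 and Cdh5, the vascular cadherin (r of at least 0.999), and nearest to Abcb1a were Myct1, Hhex and Srarp. Among the genes nearest to Ocln were Mecom and Slco1a4 (0.993), and Slco1a4 was nearest to Ocln, Mecom and Pdgfb.

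Mfsd2a was nearest to Jam2 (0.985), Cav2 and Kbtbd11, and Slco1c1 to Pnp (0.949), Fzd4 and Hspb8. Slc2a1 was nearest to Parvb (0.950), Prom1 and Fas, Abcg2 to Col4a3bp (0.954), Cdkn2b and Tgm2, Slc7a5 to Nxpe4 (0.981), Rasip1 and Kctd12, and Tfrc to Tsc22d3 (0.943), Efr3b and Lpar6.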

How the data were processed

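Per the file headers, the authors made the 2 hippocampal tables with Cell Ranger 6.1.0, and they hold deposited raw UMI counts per gene and barcode. The submitters' processing notes name mm10 and Seurat. The annotation release is not given in the sources used here. Coordinates are those of GRCm38 (GENCODE M21, whose IDs matched for all 10 genes, and RefSeq).

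From these counts, barcodes with at least 500 genes and under 15% mitochondrial UMIs were kept, and doublets called by Scrublet in Scanpy 1.11.5 were removed (242 in DTRneg, 158 in DTRpos). Classes needed at least 3 of 5 markers. Endothelial barcodes needed their own rule alone, and other classes no second one. Counts were summed per class and library and scaled to CPM, with exact Poisson intervals and exact conditional binomial intervals for ratios (SciPy 1.17.1). Each library is 1 sample of 2 pooled mice, so no p-value is given. Genes with a mean of at least 20 CPM were called past 1.3-fold. The comparison was tested on simulated data with planted folds of 2.0 and 0.5, in 100 genes each. The rule recovered 97.0% and 96.0% of them. Of the 6138 unchanged genes, 18.0% were also called, so a call past 1.3-fold can arise without any planted change.

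The 10 genes, the marker lists and the wider lists were chosen with earlier results of these data known. Genes named beyond the 10 are wider-list members past 1.3-fold, at most 6 a list, and the 3 most similar genes per barrier gene. Others (Slc3a2, Slc6a6, Cav2, Tspan12, Plvap, Abcb1b and genes without a UMI) were named after their values were seen. Alternatives changed the weighting, thinning, filters, doublets, marker number, scaling and folds. Meningeal files were not used here. Single values of some genes are not reported here.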

Additional observations from a re-analysis of the deposited data

How the results depend on the processing

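Over 11 alternatives and the 10 barrier genes, 70 of 110 log2 ratios of DTRpos over DTRneg stayed within counting error of the reported value and 40 moved further. None of the 3 genes called past 1.3-fold turned its sign, but genes that were not called did. After thinning to 2000 UMIs, Slco1a4 went from 0.30 to -0.03 and Mfsd2a from 0.19 to -0.15. Mfsd2a was also at -0.03 without barcodes with 2 or more markers of another class. With doublets kept, Ocln went from -0.02 to 0.17 and Slc2a1 from -0.06 to 0.08. Dropping the filter or using a fold of 1.5 cannot change a gene's ratio, so those values were among the 70 by design. Scaling by the median ratio shifts every gene alike. The median of the 10 genes (0.31) was 0.08 with barcodes weighted equally, 0.45 with doublets kept, 0.12 with at least 4 of 5 markers, 0.05 without the second-class barcodes, 0.06 without barcodes with 2 or more markers of another class (added after seeing the data), and 0.09 after thinning to 2000 UMIs. The number of the 10 past 1.3-fold and higher (3) was 1, 7, 0, 0, 0 and 0 in the same order, and 0 at 1.5-fold. The share of all genes higher was 16.3%, 21.9%, 17.3%, 16.2%, 16.6%, 24.4% and 8.11%. The cause was not tested. The median of the other transporters (0.19) was -0.09 with barcodes weighted equally, -0.06 without the second-class barcodes and -0.07 after thinning, and that of the other junction genes (0.24) was -0.12 after thinning. With a fold of 10, 5 of the 10 genes led in endothelial barcodes instead of 7 (1.69% of all genes). Scaling by the median ratio, a shift of 0.06, moved the calls over all genes from 1215 higher and 977 lower to 950 and 1143, and left 3 of the 10 genes higher. With at least 3 zone markers, 8 of the venous log2 ratios stayed within counting error, 12 moved, and of those past 1.3-fold 0 changed sign. The venous ratio of Cldn5 in DTRneg, not past 1.3-fold, went from 0.03 to -0.25. Depth limits genes and groups with few UMIs, such as Ocln (176 and 91 UMIs) and the arterial-marker group (34 and 20 barcodes). No paired analysis was possible because each genotype had 1 library.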

Other observations

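Classes of fewer than 50 barcodes were left out of the comparisons. In 45 DTRneg and 37 DTRpos fibroblast barcodes, Abcg2 was at 55.4 CPM (23.9 to 109, from 8 UMIs) and 46.1 CPM (from 5 UMIs), and Cldn5 had no UMI in either. Slc7a5 was at 27.7 and 18.5 CPM there, from 4 and 2 UMIs. In the 29 choroid plexus barcodes of DTRpos, Slco1c1 was at 196 CPM (126 to 292), next to 229 CPM (196 to 266) in the 149 of DTRneg.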
